A study of Homo sapiens with 4 samples.

Results

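FAM98A, FAM98B, RTCB, DDX1 and RTRAF encode core subunits of the human tRNA ligase complex and a FAM98 paralogue. These genes are described here across 4 PAS-seq libraries of esophageal squamous cell carcinoma (ESCC) cells. They were 5 of the 11305 genes that held a polyadenylation site, and their sites formed 6 of the 17627 poly(A) site clusters (PACs) in the files. A PAC was given to a gene when its dominant site, the position with the most tags, lay in the GENCODE span of the gene on the same strand. FAM98B was chosen on these data, for a downstream move of its dominant site that had the same length in both cell lines with l-lactate, so its l-lactate values are given as a description without a test. The other 4 genes were chosen as partners or paralogue of FAM98B and not for their values, though earlier results of these data were known. All 6 PACs were listed in all 4 libraries and passed the filter on low values, all had their dominant site in an annotated 3′ UTR in at least 2 libraries, and no other gene overlapped the sites on either strand.

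The tRNA ligase complex joins the exons that remain after the TSEN endonuclease has cut an intron out of a precursor tRNA. RTCB is the catalytic ligase, DDX1 is a DEAD-box RNA helicase, and FAM98B and RTRAF (also called CGI-99) are further core subunits. FAM98A is a paralogue of FAM98B. RTCB also rejoins the XBP1 mRNA after the endoplasmic reticulum stress sensor ERN1 (IRE1) has cut it, so the enzyme serves both tRNA splicing and the unfolded protein response. Where the 3′ UTR of such an mRNA ends is set by cleavage and polyadenylation, for which the hexamer AAUAAA is the main signal and UGUA the element read by the cleavage factor that contains NUDT21.

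Both lines, KYSE30 and TE-1, derive from human ESCC and are in general use. Each gave a treated library, after 24 h in 20 mM l-lactate, and a PBS control library, so that the 4 groups were KYSE30 l-lactate, KYSE30 control, TE-1 l-lactate and TE-1 control. The comparison asks which 3′ ends and transcript levels differ when ESCC cells are exposed to l-lactate. The cell line tag of both control samples reads KYSE32 and TE-3, whereas KYSE30 and TE-1 stand in their titles, and the titles were followed. Levels are in TPM, the tags of a PAC scaled to the total tags of its library without length correction, and are therefore compared only between libraries and not between genes.

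The libraries held between 7174991 and 10393799 tags. Spearman's rho of PAC TPM was 0.98 between the 2 libraries of each line and 0.805 to 0.814 between libraries of different lines. Of 8 squamous epithelium markers, 5 were listed, with a summed level of 535.7 to 716.5 TPM, whereas KRT5, KRT14 and DSG3 were not listed in any library. SFN and PERP were listed in all 4 libraries, KRT6A and TP63 only in those of KYSE30 and KRT17 only in those of TE-1. Of 5 fibroblast markers, COL1A1 and DCN were listed, in TE-1 only, with a sum of at most 12.51 TPM, and of 3 endothelium markers CDH5 was listed, in KYSE30 only, with at most 16.16 TPM. None of the 4 blood markers was listed. With 1 library per line and condition, intervals within a line are 95% intervals for counting error only, and they cover neither variation between cultures nor amplification.

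FAM98B (ENSG00000171262.11, GRCh38 chromosome 15, 38454127 to 38487710, plus strand) had 2 PACs, both in the last exon, exon 8 of 8, of its canonical transcript FAM98B-202. The upstream PAC spanned 38484860 to 38485084, a width of 225 nt, and held both alternative dominant sites, while the distal PAC spanned 38486208 to 38486220. Cleavage at the 3 sites leaves 3′ UTRs of 201, 425 and 1555 nt. No PAC was listed at the annotated end of FAM98B-202, which lies 1496 nt past the distal site. The 30 nt that end at each dominant site are shown because these are the sequences between which the dominant site moved, with a single-base variant of AATAAA in capitals.
FAM98B upstream site at 38484860 (chr15:38484831-38484860, plus): atctctcaAATGAAgtgatgactttttcca
FAM98B downstream site at 38485084 (chr15:38485055-38485084, plus): aaaggAATATAgacccttgcctcacctgta
FAM98B distal site at 38486214 (chr15:38486185-38486214, plus): ggaaAATATAaaattttttggttatttgta

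None of the 3 FAM98B sites had AATAAA or ATTAAA in the 50 nt before it on the sense strand, whereas either hexamer preceded 83.3% to 84.1% of all PACs in a library. Single-base variants were present in their place. AATGAA ended 16 nt before the upstream site. AATATA ended 19 nt and AATAGA 29 nt before the downstream site. AATATA and the overlapping TATAAA ended 20 and 18 nt before the distal site, and AAGAAA ended 43 nt before it. Such a variant without a main signal was found at 12.8% to 13.4% of all PACs. TGTA, the DNA form of UGUA, occurred once within 100 nt before the upstream site and 3 times before each of the other two, and it formed the last letters before cleavage at both of these. Over all PACs of a library, 57.1% to 57.8% had TGTA in this window. The 30 nt after the sites were 43.3%, 53.3% and 63.3% T in the same order, against a median of 40% over all PACs. These matches describe letters in a window and not sites shown to be used.

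In the upstream PAC of FAM98B, the dominant site was 38484860 in both control libraries and 38485084 in both l-lactate libraries. The move was 224 nt downstream in KYSE30 and 224 nt downstream in TE-1. This is the pattern on which the gene was chosen. In KYSE30, 38484860 held 139 of the 307 tags of the PAC in the control (45.3%, interval 39.8% to 50.9%), and 38485084 held 100 of 274 tags with l-lactate (36.5%, 31.0% to 42.3%). In TE-1, the leading site held 238 of 625 tags in the control (38.1%, 34.4% to 41.9%) and 206 of 530 tags with l-lactate (38.9%, 34.8% to 43.1%). In every library, most tags of the PAC were thus at positions other than the leading site.

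The tables give the tags of the leading site and not those of the runner-up, so only the least change that the move requires can be worked out. In KYSE30, 38484860 cannot have held more than the leading site with l-lactate, so its share fell by at least 8.78 percentage points. In TE-1, 38485084 cannot have held more than the leading site in the control, so its share rose by at least 0.788 points, which is smaller than the counting interval of either share. The positions that bound the middle 80% of the tags in the PAC were 38484860 and 38485084 in all 4 libraries, which places a part of the tags at or beyond both ends in every library.

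**Figure D1:**
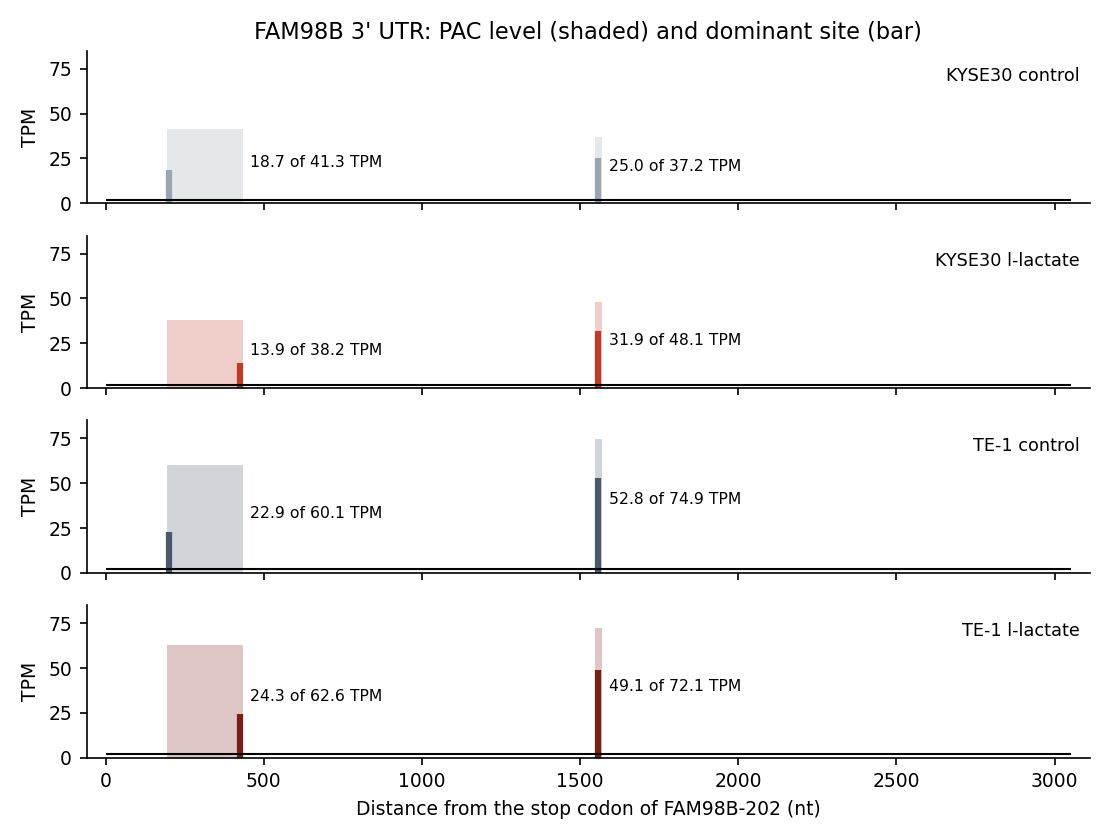
FAM98B 3′ UTR in the 4 libraries, with distance from the stop codon of FAM98B-202 in nt on the x axis and TPM on the y axis. The shaded blocks give the level of each PAC over its quantile span and the narrow bars the level of its dominant site. In the upstream PAC the bar stands at 201 nt in both control libraries and at 425 nt in both l-lactate libraries, while the bar of the distal PAC stays at 1555 nt.

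The level of the upstream PAC was 41.3 TPM in the KYSE30 control and 38.2 TPM with l-lactate, and 60.1 and 62.6 TPM in TE-1. The log2 ratio of l-lactate to control was -0.11 (interval -0.35 to 0.13) in KYSE30 and 0.06 (-0.11 to 0.23) in TE-1. The distal PAC was at 37.2 TPM in the KYSE30 control and 48.1 TPM with l-lactate, and at 74.9 and 72.1 TPM in TE-1. Its log2 ratio was 0.36 (0.14 to 0.61) in KYSE30 and -0.05 (-0.21 to 0.10) in TE-1. Of these 4 ratios, that of the distal PAC in KYSE30 had an interval that left out 0.

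The 2 PACs of FAM98B also allow the share of the distal PAC in the level of the gene to be given. In KYSE30 this share was 47.3% (43.3% to 51.4%) in the control and 55.7% (51.8% to 59.6%) with l-lactate, a difference of 8.39 percentage points (2.74 to 13.97). In TE-1 it was 55.5% (52.8% to 58.0%) in the control and 53.5% (50.6% to 56.4%) with l-lactate, a difference of -1.90 points (-5.79 to 1.98). The equal move within the upstream PAC was therefore not matched by an equal change between the PACs. Neither line reached the 10 points from which a change was called, so 0 of 1 member genes with more than 1 PAC was called, where 9.92% of 1906 genes in KYSE30 and 12.2% of 1940 genes in TE-1 were.

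A move of the dominant site by more than 24 nt, in PACs above 5 TPM in both libraries of a line, was seen in 1 of the 6 PACs of these genes in each line, that of FAM98B. The share over all PACs was 1.43% in KYSE30 (155 of 10849) and 1.24% in TE-1 (134 of 10769). Since this contrast chose FAM98B, nothing is read from that count. The dominant sites of the other 5 PACs had the same position with l-lactate as in the control of the line. Of 8909 PACs above 5 TPM in all 4 libraries, 21 moved past 24 nt in both lines, 11 of them downstream and 4 upstream in both, and 12 moved by an equal length, 8 of these downstream.

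Among these PACs, 3 came closest to the move of FAM98B by the summed difference from its 224 nt in each line. IFT57, which encodes a subunit of the intraflagellar transport machinery of cilia, moved by 187 nt in both lines (summed difference 74 nt). TMEM69 moved by 308 nt in both lines (168 nt), and PAWR, which encodes a pro-apoptotic regulator, moved by 180 nt in KYSE30 and 349 nt in TE-1 (169 nt). The upstream PAC of FAM98B was wide, as a move of 224 nt within a PAC requires. The median width between the quantile positions was 5 nt over all PACs, and 6.40% to 6.54% of PACs in a library reached 225 nt. Its leading site also held less of the PAC than the median of 75.9% to 76.3% over PACs above 5 TPM. Both traits go with the move on which the gene was chosen, so nothing is read from them.

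**Figure D2:**
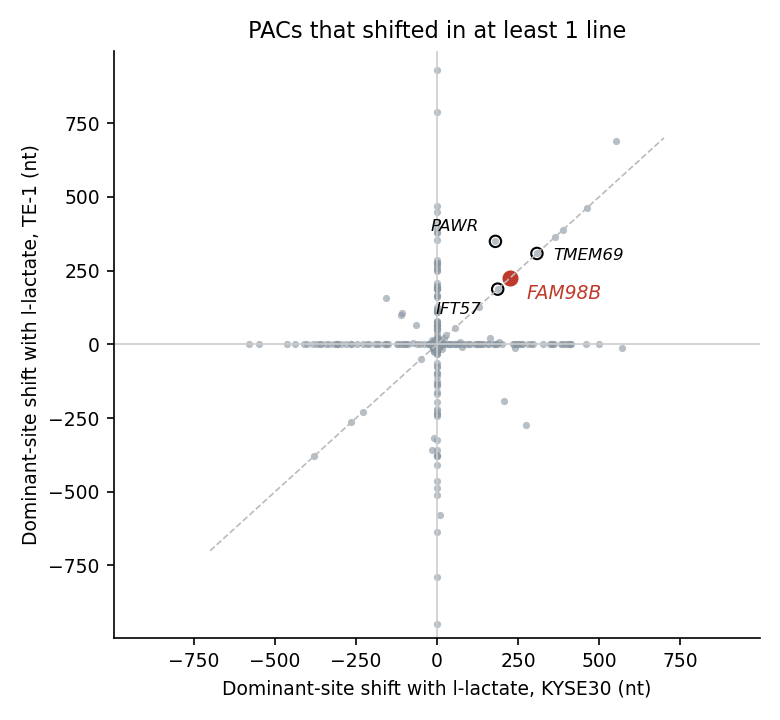
Move of the dominant site with l-lactate, in nt along transcription, in KYSE30 (x axis) and TE-1 (y axis), for PACs above 5 TPM in all 4 libraries that moved in at least 1 line. Most points lie on an axis, having moved in 1 line only, while FAM98B (red, 224 nt in each line) lies on the dashed line of equal moves, as do IFT57 and TMEM69.

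RTCB (ENSG00000100220.12, GRCh38 chromosome 22, 32387582 to 32412248, minus strand), the catalytic subunit, had 1 PAC of 27 nt at 32387574 to 32387600. Its dominant site differed between the lines and not between treatments. It was 32387581 in both KYSE30 libraries and 32387600 in both TE-1 libraries, 19 nt further upstream. The TE-1 site leaves a 3′ UTR of 392 nt in exon 12 of 12 of RTCB-201, 18 nt before the annotated end. The KYSE30 site lies 1 nt past that end, so the PAC was assigned to RTCB through its position in the TE-1 libraries. The sequences are shown because the leading signal variant differs between the sites, with a single-base variant of AATAAA in capitals.
RTCB site of KYSE30 at 32387581 (chr22:32387581-32387610, minus): agttctgttcAATAAGgttttggaatgttt
RTCB site of TE-1 at 32387600 (chr22:32387600-32387629, minus): cgagaggtgtcatgAAGAAAgttctgttca

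Like the FAM98B sites, both RTCB sites lacked AATAAA and ATTAAA in the 50 nt before them. AATAAG ended 14 nt before the KYSE30 site, and AAGAAA ended 29 nt before the KYSE30 site and 10 nt before the TE-1 site. There was no TGTA within 100 nt before either. The leading site held 36.9% of the tags in the KYSE30 control (34.2% to 39.6%) and 34.7% with l-lactate (32.2% to 37.4%). In TE-1 it held 29.8% in the control (27.5% to 32.3%) and 30.6% with l-lactate (28.0% to 33.4%). The share of 32387581 was accordingly lower in TE-1 than in KYSE30 by at least 7.03 percentage points in the control libraries and 4.12 points in the l-lactate libraries. A dominant site that was the same within each line and different between the lines was found in 2.01% of 8909 PACs, and in 1 of the 6 PACs of these genes.

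The helicase DDX1, the subunit RTRAF and the paralogue FAM98A had a single dominant site each, at the same position in all 4 libraries. DDX1 (ENSG00000079785.16, chromosome 2, 15591178 to 15634346, plus strand) ended at 15631099, 2 nt before the end of DDX1-201 in exon 26 of 26, with a 3′ UTR of 193 nt. RTRAF (ENSG00000087302.9, chromosome 14, 51989514 to 52010694, plus strand) ended at 52004693, with a 3′ UTR of 177 nt in exon 8 of RTRAF-201. This site lies 6001 nt before the annotated end of RTRAF-201, where no PAC was listed. It lies 9 nt before the annotated end of another protein-coding transcript, RTRAF-202. FAM98A (ENSG00000119812.20, chromosome 2, 33532744 to 33599347, minus strand) ended at 33583661, 1 nt before the end of FAM98A-201 in exon 8 of 8, with a 3′ UTR of 1115 nt. Their sequences are shown for contrast with FAM98B and RTCB, with AATAAA in capitals.
DDX1 site at 15631099 (chr2:15631070-15631099, plus): gcatcccaatgaaAATAAAtttgatgacta
RTRAF site at 52004693 (chr14:52004664-52004693, plus): cttttttctttAATAAAgtttaggaaagta
FAM98A site at 33583661 (chr2:33583661-33583690, minus): aggtgagcAATAAAgtatctgttaagttct

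AATAAA ended 11 nt before the DDX1 site, 13 nt before the RTRAF site and 16 nt before the FAM98A site. Over the 8 dominant sites of the 5 genes, either main signal was therefore present at 3, those of DDX1, RTRAF and FAM98A, and absent at the 3 FAM98B and 2 RTCB sites, of which the distal FAM98B site also kept its position in all 4 libraries. TGTA stood within 100 nt before 4 of the 8 sites, the 3 of FAM98B and that of FAM98A, where the nearest ended 80 nt away. The 2 RTCB sites share part of their sequence and 3 of the sites belong to FAM98B, so these counts are a description.

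The share of tags at the leading site was steady across libraries for RTRAF, FAM98A and the distal PAC of FAM98B. RTRAF had 79.3% and 79.4% in KYSE30 (control and l-lactate) and 81.1% and 82.2% in TE-1. FAM98A had 53.7% and 55.4% in KYSE30 and 55.4% and 56.2% in TE-1. The distal PAC of FAM98B had 67.4% and 66.4% in KYSE30 and 70.6% and 68.1% in TE-1. DDX1 had 74.3% (71.0% to 77.3%) and 75.4% (72.3% to 78.3%) in KYSE30, and 81.7% (79.6% to 83.5%) and 84.0% (82.0% to 85.9%) in TE-1. For DDX1 the intervals of the 2 treatments of a line overlapped. How many of all PACs differ to this extent between the lines was not counted.

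**Figure D3:**
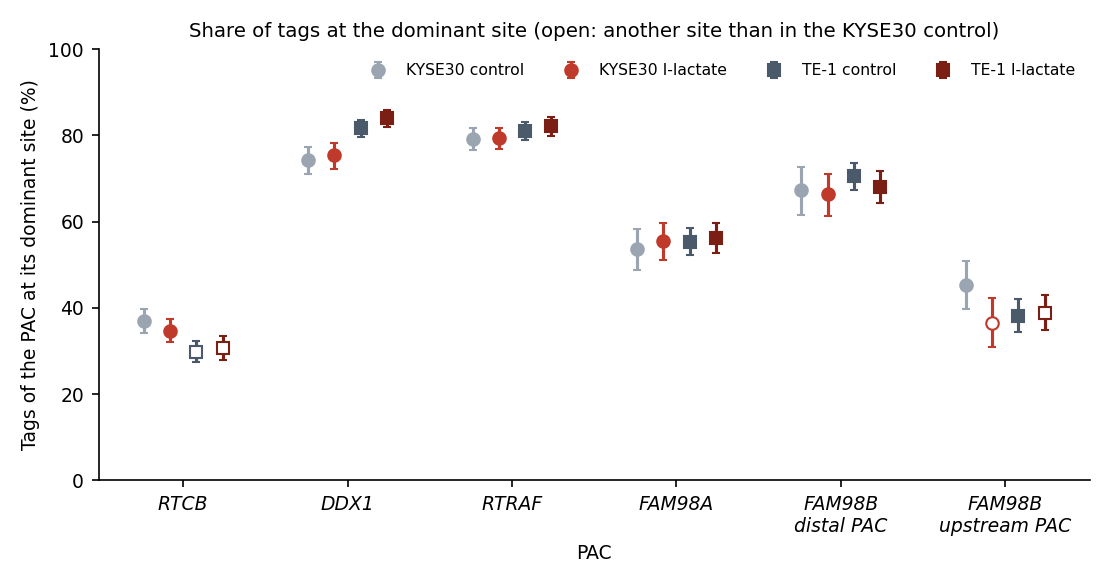
Share of the tags of each PAC at its dominant site (y axis, percent) in the 4 libraries, with 95% Wilson intervals for counting error. Open symbols mark a dominant site at another position than in the KYSE30 control, as for RTCB in both TE-1 libraries and for the upstream PAC of FAM98B in both l-lactate libraries. DDX1 lies between 74.3% and 75.4% in KYSE30 and between 81.7% and 84.0% in TE-1.

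The levels of the 5 genes changed by less than 1.5-fold with l-lactate in each line. RTCB was at 160 TPM in the KYSE30 control and 179 TPM with l-lactate, and at 133 and 130 TPM in TE-1. DDX1 was at 100.5 and 112 TPM in KYSE30 and at 145 and 162 TPM in TE-1, and was the gene of the 5 with an interval above 0 in both lines. RTRAF was at 128 and 149 TPM in KYSE30 and at 129 and 130 TPM in TE-1. In KYSE30 all 3 subunits stood higher in the l-lactate library, whereas in TE-1 the values of RTCB and RTRAF differed by less than counting error.

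FAM98B was at 78.5 TPM in the KYSE30 control and 86.3 TPM with l-lactate, and at 135 TPM in both TE-1 libraries. FAM98A was at 57.0 and 71.9 TPM in KYSE30 and at 92.7 and 93.0 TPM in TE-1. The KYSE30 ratio of FAM98A was the highest of the 5 genes. Within KYSE30, the log2 ratio of l-lactate to control was 0.33 for FAM98A (0.15 to 0.53), 0.22 for RTRAF (0.09 to 0.34), 0.16 for RTCB (0.04 to 0.27), 0.16 for DDX1 (0.01 to 0.31) and 0.13 for FAM98B (-0.03 to 0.30). Within TE-1 it was 0.16 for DDX1 (0.05 to 0.26), and the intervals of the other 4 genes included 0, with ratios between -0.03 for RTCB and 0.01 for RTRAF. Rescaling the libraries to a common median turned the TE-1 ratios of FAM98A and RTRAF to -0.04 and -0.03. None of the 5 genes reached 1.5-fold in either line, where 6.61% of 11017 genes did in KYSE30 and 6.65% in TE-1. The median log2 ratio over all genes was 0 in KYSE30 (quartiles -0.133 and 0.13) and 0.01 in TE-1 (-0.09 and 0.17). In KYSE30 all 5 genes lay above the upper quartile, FAM98B narrowly at 0.134. In TE-1 all 5 lay between the quartiles.

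**Figure D4:**
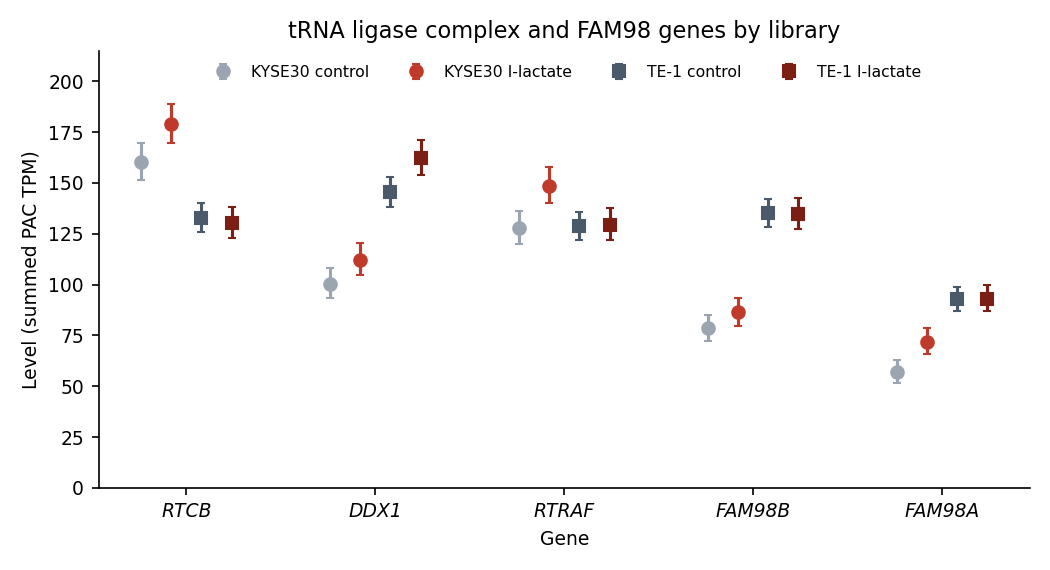
Level of the 5 genes (y axis, summed TPM of their PACs) in the 4 libraries, with 95% intervals for counting error. FAM98B, FAM98A and DDX1 lie higher in both TE-1 libraries than in both KYSE30 libraries and RTCB lies lower, while RTRAF is at 128 to 130 TPM in 3 libraries and at 149 TPM in KYSE30 with l-lactate.

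Both lines together give 2 l-lactate and 2 control libraries, with the line as a covariate and 1 residual degree of freedom. In limma on log2(TPM + 1), none of the 4 tested genes passed a Benjamini-Hochberg adjusted p of 0.05 for l-lactate. The same was true of all genes (0% of 11017), of which 795 had an unadjusted p below 0.05, none of them among these 4. DDX1 had a log2 difference of 0.16 ± 0.07 (SE) and a limma adjusted p of 0.65. FAM98A had 0.17 ± 0.11 (adjusted p = 0.708), RTRAF 0.11 ± 0.08 (adjusted p = 0.745) and RTCB 0.06 ± 0.08 (adjusted p = 0.856). The fitted difference of FAM98B was 0.07 and was not tested. The median over the 5 genes was 0.11, against 0.02 over all genes tested. A change in the transcripts of each cell and a change in the makeup of a culture cannot be told apart in these libraries.

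Between the lines, 3 of the 5 genes were higher in TE-1, 1 was lower and 1 did not pass the test, by limma with the treatment as a covariate. Over all genes 70.9% of 11017 passed, 3811 higher and 4003 lower, so that a share of 4 in 5 is near that of the whole table. FAM98B was higher in TE-1 by 0.71 ± 0.08 on the log2 scale (SE, limma adjusted p = 0.000816), from means of 82.4 TPM in KYSE30 and 135 TPM in TE-1. FAM98A was higher by 0.53 ± 0.11 (adjusted p = 0.0074) and DDX1 by 0.53 ± 0.07 (adjusted p = 0.0014). RTCB was lower, with a difference of -0.36 ± 0.08 (adjusted p = 0.00936), from means of 170 and 132 TPM. RTRAF had a difference of -0.10 ± 0.08 (adjusted p = 0.333). The catalytic subunit and its helicase partner thus differed between the lines in opposite directions.

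These p-values rest on how far the l-lactate difference varied between the lines, with 1 residual degree of freedom and a spread moderated over all genes. They do not rest on separate cultures of 1 condition. KRT6A, TP63 and CDH5 were listed only in KYSE30, and KRT17, COL1A1 and DCN only in TE-1, and their part in these differences was not tested. The order of the FAM98B levels was KYSE30 control, KYSE30 l-lactate, then the 2 TE-1 libraries. The neighbours within each line did not differ beyond counting error, whereas the interval of the ratio of the lines lay above 0 for l-lactate and control libraries alike, with log2 ratios of 0.64 and 0.77.

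Other genes of tRNA splicing and RNA end repair were taken from a list of 17, of which 15 had a PAC in their span. PYROXD1, which encodes a protector of RTCB against oxidation, was not listed, and TSEN54, an endonuclease subunit, was listed only past its gene end, at 24.4 to 27.3 TPM. For l-lactate, 0 of the 15 passed in limma, and 0 had an unadjusted p below 0.05. The median log2 difference of the list was -0.02. ANGEL2, a phosphatase of RNA ends, came nearest with -0.52 ± 0.21 (adjusted p = 0.65), from 9.43 to 4.88 TPM in KYSE30 and 18.2 to 15.6 TPM in TE-1.

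Between the lines, 4 of the 15 listed genes were higher in TE-1 and 4 lower, and 7 did not pass, where the share over all genes was 70.9%. TSEN34, a catalytic endonuclease subunit, was lower in TE-1 (log2 difference -1.56, limma adjusted p = 0.000118), as was the subunit TSEN15 (-0.32, adjusted p = 0.0365). ZBTB8OS, the archease that activates RTCB, was lower in TE-1 (-0.78, adjusted p = 0.00201), the direction of RTCB itself. RTCA, which cyclises RNA 3′ ends, was also lower (-0.46, adjusted p = 0.00398). XBP1, whose mRNA RTCB ligates, was higher (0.96, adjusted p = 0.000294), with 54.9 and 62.7 TPM in KYSE30 and 108 and 122 TPM in TE-1. TRNT1, which adds the CCA end of tRNAs, and ANGEL2 were higher by 1.21 (adjusted p = 0.00187) and 1.19 (adjusted p = 0.00456). C2orf49, the remaining core subunit (Ashwin), was at 6.02 to 7.53 TPM in all 4 libraries and did not pass the test, nor did FAM98C, the remaining FAM98 paralogue.

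The dominant sites of the listed genes moved past 24 nt in 0 of 17 PACs in KYSE30 and in 2 of 20 in TE-1, those of ANGEL2 (276 nt downstream) and TRNT1 (113 nt downstream), where the shares over all PACs were 1.43% and 1.24%. Counts this small are not read as a result about the list. ANGEL2 was under 5 TPM in the KYSE30 l-lactate library and was not compared there. Of 4 listed genes with several PACs in each line, 0 changed their distal share by 10 points, where 9.92% of genes in KYSE30 and 12.2% in TE-1 did, and the largest difference was 9.70 points for RTCA in TE-1.

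Over 4 libraries and 9156 genes of mean TPM at least 5, 3 genes had the pattern of levels most like that of FAM98B, by the Euclidean distance of centred log2(TPM + 1). FEN1, a flap endonuclease of DNA replication, was nearest (distance 0.0218), with 198 and 214 TPM in KYSE30 (control and l-lactate) and 333 and 332 TPM in TE-1. CRBN, a substrate receptor of a ubiquitin ligase, followed (0.0258), with 8.89 and 9.89 TPM in KYSE30 and 15.7 and 15.6 TPM in TE-1. TUBG1, the gamma-tubulin of microtubule nucleation, came next (0.0298), with 92.8 and 105 TPM in KYSE30 and 161 TPM in both TE-1 libraries. By this choice, all 3 shared the FAM98B pattern. It was a higher level in TE-1, a slightly higher level with l-lactate in KYSE30 and nearly equal levels in TE-1.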

How the data were processed

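PAS-seq libraries were made by the authors from mRNA with a stranded kit and sequenced as 150 nt paired reads. Their methods give trimming, alignment by HISAT2 to the GRCh38 genome and CAGEr for calling poly(A) sites, which were merged into PACs within 24 nt and again within 500 nt. Versions of HISAT2 and CAGEr are not given in the sources used here. The deposited values are TPM, which here are RPM: tags of a PAC relative to all tags in its library, 1 library per file, with no length correction. The library total was fitted to the values, and with it 100% of values in each library were whole tags within 0.1 tag. Tag counts and counting intervals rest on these fitted totals.

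The members and lists were chosen with earlier results of these data known. PACs not listed in a library counted as 0. Gene levels were tested with limma 3.58.1 (R 4.3.3) with a trend on log2(TPM + 1), for genes of mean TPM at least 1, two-sided, with Benjamini-Hochberg adjustment over all genes and a threshold of 0.05. Within a line there was 1 library per condition and no test. Intervals are exact conditional intervals for ratios of tags and Wilson intervals for shares, at 95%. A level was called changed from 1.5-fold, a dominant site past 24 nt at TPM above 5, and a distal share from 10 percentage points. The hexamer AATAAA with its single-base variants (among them ATTAAA) and the element TGTA were sought on the sense strand of GRCh38, and sites were placed on GENCODE 44. Named genes were the 5 members, the list of 17 by counts and examples (1 of its genes is counted but not reported here), and the 3 nearest to FAM98B by level and by dominant-site move. The test was checked on simulated data. Scripts used pandas 2.3.3, NumPy 2.4.6, SciPy 1.17.1 and matplotlib 3.10.9 on Python 3.11.15. Alternatives changed the pseudocount, filters, scaling, thresholds, windows, the position used in a PAC and the PACs counted.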

Additional observations from a re-analysis of the deposited data

Results flagged for a closer look

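In 3 measures, the difference with l-lactate had opposite signs in KYSE30 and TE-1, but in TE-1 the counting interval of each included 0. None of these differences between the lines was tested, since each line had 1 library per condition. The level of FAM98B had a log2 ratio of 0.13 in KYSE30 and -0.003 in TE-1, a difference of 0.137, and the counting interval included 0 in both lines. The level of RTCB had a log2 ratio of 0.16 in KYSE30 and -0.03 in TE-1, a difference of 0.184, with an interval above 0 in KYSE30 and around 0 in TE-1. The distal PAC of FAM98B changed its share by 8.39 percentage points in KYSE30 and -1.90 points in TE-1, a difference of 10.3 points, while the dominant site of the upstream PAC moved by the same 224 nt in both.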

How the results depend on the processing

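With the lower quantile, upper quantile or midpoint position in place of the dominant site, the upstream PAC of FAM98B moved by 0 nt in both lines and 0 of the 6 PACs moved, because the quantile positions were the same in all 4 libraries. The move of 224 nt therefore rests on which site led. With a call from 5 percentage points, 1 gene (FAM98B) changed its distal share in KYSE30 in place of 0. The genes called for l-lactate over the whole table were 1 with a pseudocount of 5, 2 with mean TPM at least 5 and 155 when PACs missing from any library were dropped (101 higher, 54 lower), in place of 0, and in each case 0 of the tested members passed. The moderation of the spread over genes had 4.015 prior degrees of freedom in the main fit. In these settings it had 9.342, 9.330 and an infinite number, in the same order. The cause of the added calls was not tested. The limma adjusted p for l-lactate ranged from 0.459 (DDX1) to 0.917 (RTCB) over the members and alternatives. For TE-1 against KYSE30, FAM98B, FAM98A, DDX1 and RTCB passed under every alternative run, with an adjusted p of at most 0.0154, and RTRAF did not (0.313 to 0.5). The other 64 values that answer a comparison and 100 single-gene values were classed as unchanged. Among them, the member sites with TGTA numbered 3 with a window of 60 nt, in place of 4 with 100 nt. The TE-1 log2 ratios of FAM98A and RTRAF turned to -0.04 and -0.03 with rescaled libraries. The planned count test on recovered tags was not run. Leaving out a library leaves the fit no residual degree of freedom, and no such test was run. At 423 to 1510 tags per gene and library, differences in level whose printed interval includes 0 cannot be told from counting error.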
